A study of Mus musculus with 95 samples.

Results

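The 8 genes here were followed through embryonic stem cell lines that lack different PCGF proteins: Auts2, Fbrs and Fbrsl1, Csnk2a1, Csnk2a2 and Csnk2b, and Usf1 and Usf2. They are 8 of the 23377 genes in the count table and were taken by name, as the genes for the partners of the PCGF3/5 form of Polycomb repressive complex 1 and for the upstream stimulatory factors. Their RNA was read over 7 genotypes, and peak lists for H3K4me3, PCGF3, USF1 and RING1B were read at their annotated starts. The series held 95 samples of the mouse E14 embryonic stem cell line and its derivatives, of which 81 were ChIP-seq samples and 14 were RNA-seq libraries. The RNA groups had 2 libraries each: wild-type, Pcgf1-/-, Pcgf2/4-/-, Pcgf3/5-/-, Pcgf6-/-, Pcgf1/2/4-/- and Pcgf3/5/6-/-. The gene Bmi1 encodes PCGF4. All lines were cultured on gelatin in serum with leukemia inhibitory factor and with inhibitors of GSK3β (CHIR99021) and MEK1/2 (PD0325901). Knockouts were made with Cas9 and isolated as clones, double and triple knockouts by editing a knockout clone again, and the columns of the count table name 1 clone for each genotype. The authors' comparison table names a different Pcgf6-/- clone from the count table. A clone and its genotype therefore cannot be told apart. PCGF3 was also profiled in E14 cells carrying short hairpin RNAs (shCtr, shUsf1, shUsf2) and in a Ring1a-/-;Ring1b fl/fl;Rosa26::CreERT2 line with and without RING1B.

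Polycomb repressive complex 1 is built on RING1A or RING1B, the ubiquitin ligases that attach ubiquitin to histone H2A (H2AK119Ub1), and on 1 of the PCGF proteins, which sets the other subunits. Complexes with PCGF3 or PCGF5 can take up AUTS2 or its relatives fibrosin (FBRS) and fibrosin-like 1 (FBRSL1), together with casein kinase 2, a kinase of catalytic subunits (CSNK2A1, CSNK2A2) and a regulatory subunit (CSNK2B) that acts on many proteins besides this complex. USF1 and USF2 are basic helix-loop-helix leucine zipper factors that bind as dimers to the E-box CACGTG and are widely expressed.

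Auts2 (ENSMUSG00000029673.9) lies on the minus strand of chromosome 5 at 131913205 to 133019214 of build NCBIM37 and spans 1110 kb, with 14 annotated starts. Fbrsl1 (ENSMUSG00000043323.9) is on the same strand and chromosome at 110790773 to 110877522, and Fbrs (ENSMUSG00000042423.7) on the plus strand of chromosome 7 at 134628735 to 134635027. Csnk2a1 (ENSMUSG00000074698.4) is on chromosome 2 at 152052575 to 152107588, Csnk2a2 (ENSMUSG00000046707.7) on chromosome 8 at 97969996 to 98012727 and Csnk2b (ENSMUSG00000024387.6) on chromosome 17 at 35253141 to 35258998. Usf1 (ENSMUSG00000026641.7) is on chromosome 1 at 173341444 to 173349273, and Usf2 (ENSMUSG00000058239.7) on chromosome 7 at 31730271 to 31741822. Annotated genes on the opposite strand overlap Fbrsl1 (Gm17724), Csnk2b (RP23-115O3.9) and Usf2 (Gm17077), and Tstd1 overlaps the last 110 bases of Usf1 on the same strand. Whether the counting used strand is not given in the sources used here, so reads of these partners cannot be separated.

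USF1 was bound near the starts of 2 of the 8 genes in wild-type cells, Auts2 and Usf1, within 2.5 kb of a start. A USF1 peak of this kind was present at 17.3% of the 19446 protein-coding genes. The 201 bases centred on 3 of the USF1 summits at these genes are shown to place the E-box of the factor, CACGTG, which each holds once, in capitals; the motif is its own reverse complement, so both strands are read at once. The summits at the inner Auts2 starts, 927 and 1005 kb inside the gene, lay in introns of longer transcripts. They were 149 and 96 bases upstream of those starts, with fold enrichments of 11.7 and 13.5 in the authors' peak list. The window at the start 1005 kb inside also reached exonic bases of 1 transcript. The Usf1 window lay in an intron. Its summit was 2082 bases downstream of the nearest start, with a fold enrichment of 5.81 and a -log10 q of 9.30. Sequences are from NCBIM37, 5′ to 3′ on the strand of the gene, at chr5:132092524-132092724 and chr5:132014553-132014753 (both minus strand) and chr1:173343794-173343994 (plus strand).
Auts2, start 927 kb inside: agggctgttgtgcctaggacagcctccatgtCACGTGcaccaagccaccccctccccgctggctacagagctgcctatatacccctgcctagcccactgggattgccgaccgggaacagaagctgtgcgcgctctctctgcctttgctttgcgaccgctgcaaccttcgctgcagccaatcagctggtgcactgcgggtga
Auts2, start 1005 kb inside: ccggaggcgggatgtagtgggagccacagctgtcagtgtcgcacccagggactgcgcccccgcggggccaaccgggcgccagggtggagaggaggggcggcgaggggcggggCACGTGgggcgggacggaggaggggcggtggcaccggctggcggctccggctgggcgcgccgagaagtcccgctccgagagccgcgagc
Usf1, intron: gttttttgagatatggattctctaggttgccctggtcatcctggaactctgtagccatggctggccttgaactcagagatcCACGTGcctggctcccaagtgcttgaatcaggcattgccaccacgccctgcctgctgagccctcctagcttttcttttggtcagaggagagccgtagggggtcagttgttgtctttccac

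Counted from the summit to the third base of the motif, the E-boxes lay at -67, 14 and -17 bases in the order shown. CACGTG was present in 74.7% of the 201-base windows around all 9659 USF1 summits and in 4.94% of the 70064 windows of the same length centred on annotated starts. None of the 10 RefSeq promoters (250 bases before to 50 after a start, placed in NCBIM37 by exact match) that matched 6 of the 8 genes held it, against 7.15% of 32851 RefSeq promoters. Auts2 and Usf2 had no entry among them. A promoter is shown because Polycomb peaks appeared at it in 1 knockout (described under Fbrsl1). It is the RefSeq promoter of the inner Fbrsl1 start, 61.4 kb inside the gene, at chr5:110816097-110816396 (minus strand), with a GC content of 65.7% and no CACGTG.
Fbrsl1, inner start: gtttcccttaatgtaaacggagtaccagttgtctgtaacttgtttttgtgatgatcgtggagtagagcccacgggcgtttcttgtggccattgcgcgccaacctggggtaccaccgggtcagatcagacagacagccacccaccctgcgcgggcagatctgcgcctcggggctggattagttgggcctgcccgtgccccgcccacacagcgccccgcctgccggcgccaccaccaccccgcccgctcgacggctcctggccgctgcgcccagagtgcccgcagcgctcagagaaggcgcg

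The RNA libraries held 2147968 to 7848161 counts. The Pcgf1/2/4-/- and Pcgf3/5/6-/- libraries and Pcgf2/4-/- replicate 1 were the shallow ones, at up to 3120754 counts. The 2 wild-type libraries differed by less than sampling noise (chi-square of 0.951 per degree of freedom over 13931 genes). Wild-type therefore stands for 1 sample: both library values are printed below, with no SD, and their agreement is no measure of biological spread. The planned test keeps both wild-type libraries, so each call against wild-type is also given with them summed as 1 sample. The chi-square value was 1.19 in Pcgf3/5/6-/-, 1.21 in Pcgf1/2/4-/-, 1.91 in Pcgf6-/-, 5.62 in Pcgf3/5-/-, 10.8 in Pcgf1-/- and 21.3 in Pcgf2/4-/-. Libraries of each triple knockout thus differed by little more than sampling noise. A call that holds without any single one of them is no measure of biological spread either. Nothing in the labels says that replicates came from separate cultures, so p-values measure only the spread between these libraries. The 8 embryonic stem cell markers were detected in every group, summing to 1620 to 1630 CPM (counts scaled to library size) in wild-type, 2970 to 3230 CPM in Pcgf1/2/4-/- and 1260 to 2740 CPM elsewhere. Primitive endoderm markers summed to 48.1 to 55.0 CPM in Pcgf6-/- and 56.6 to 65.2 CPM in Pcgf3/5/6-/-, against 0.229 to 15.8 CPM in the other groups, and 2-cell-like markers to 314 to 349 and 215 to 221 CPM, against 2.06 to 79.9 CPM. Of the 6 primitive endoderm markers, 4 were at 0 in wild-type. Among them, Dab2 reached 50.7 CPM and Pdgfra 11.4 CPM, while Gata4, Gata6, Sox17 and Sox7 stayed at up to 2.14, 2.12, 1.35 and 1.9 CPM in any library. Fibroblast markers (0.534 to 38.2 CPM) and neural markers (9.21 to 172 CPM) also had their highest sums in Pcgf3/5/6-/-. The neural sums were almost all Tubb3 (8.38 to 171 CPM), with Pax6 and Sox1 at up to 1.01 and 0.999 CPM. Fewer cells of a type and less RNA per cell cannot be told apart in bulk samples. Pcgf1 fell to 3.20 to 4.81 CPM in Pcgf1-/- from 61 and 66.1 CPM in wild-type, and Pcgf6 was at 0 in Pcgf6-/-. Other targeted genes kept transcript counts. Pcgf2 was at 41 to 57.1 CPM in Pcgf2/4-/- and Pcgf1/2/4-/- (42.9 and 48.9 CPM in wild-type), and Bmi1 at 12.1 to 19.9 CPM (14.2 and 16.1 CPM in wild-type). Pcgf3 was at 11.4 and 12.8 CPM in Pcgf3/5-/- and 13.5 and 13.6 CPM in Pcgf3/5/6-/- (15.5 and 16.4 CPM in wild-type), not called in either (edgeR adjusted p = 0.242 and 0.448). Pcgf5 fell in Pcgf3/5-/- by 1.22, but also in Pcgf1-/- by 1.28 and in Pcgf2/4-/- by 1.17, and was at 13.5 and 16.4 CPM in Pcgf3/5/6-/- (10.8 and 13.0 CPM in wild-type). The libraries labelled Pcgf3/5/6-/- held Pcgf6 at 37.2 and 42.0 CPM, against 34.3 and 36.2 CPM in wild-type. Gene counts do not show whether an edited transcript makes protein. Apart from Pcgf1 and Pcgf6 in Pcgf1-/-, Pcgf1/2/4-/- and Pcgf6-/-, RNA thus did not show the genotypes below, and the directions drawn from them rest on the labels. In ChIP-seq, the PCGF3 list held 21 peaks in Pcgf3/5-/- and 223 in wild-type, and the PCGF2 list 1050 in Pcgf2/4-/- and 4472 in wild-type. These are single lists, and the PCGF3 lists ranged from 5 to 612 peaks. No PCGF protein was profiled in the triple knockouts.

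All 8 genes passed the filter on low counts. Per kilobase of exon, the wild-type mean was 66.3 CPM for Csnk2a1, 63.7 for Csnk2b and 53.1 for Usf1. It was 7.05 for Fbrs, 6.31 for Usf2, 5.05 for Csnk2a2, 1.16 for Auts2 and 0.467 for Fbrsl1, on the same scale. The catalytic subunit gene Csnk2a2 thus stood far below Csnk2a1, and Usf2 far below Usf1. Across the 7 genotypes the widest ranges were those of Fbrsl1 and Auts2, whose highest group mean was 4.15 and 3.51 times the lowest, and the ratio was 1.52 to 2.12 for the other 6. The plot of CPM by genotype shows every library.

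**Figure D1:**
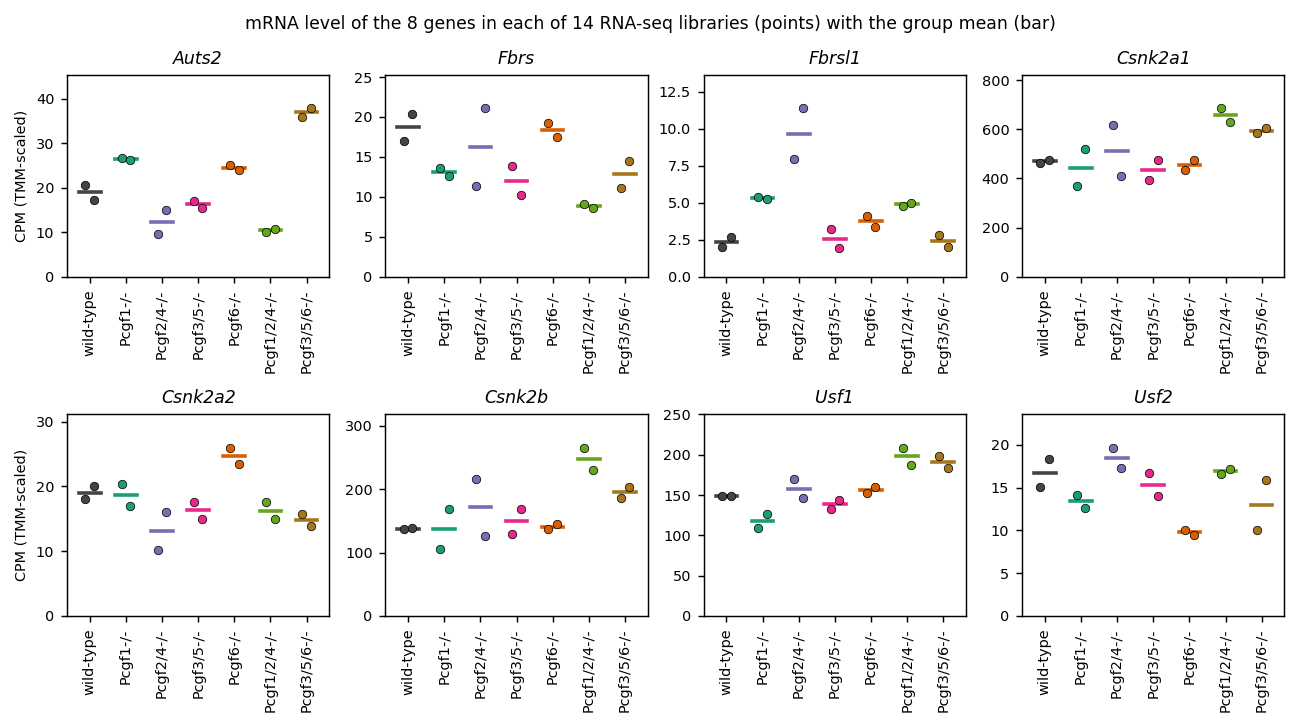
CPM (linear axes from 0) of the 8 genes in the 14 RNA-seq libraries, 1 panel a gene, with a point for each library and a bar for the mean of the 2 libraries of a genotype. Auts2 is highest in Pcgf3/5/6-/- (36 and 37.9 CPM) and lowest in Pcgf1/2/4-/- (10.1 and 10.8 CPM), and Fbrsl1 is highest in Pcgf2/4-/- (7.96 and 11.4 CPM).

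The comparisons asked which genes depend on which PCGF protein, and each gene was called at an adjusted p below 0.05 in edgeR's quasi-likelihood test over 15464 genes. In Pcgf3/5-/-, the line labelled as lacking the PCGF proteins of this complex, 0 of the 8 genes were called, where 21.6% of all genes tested were. At an unadjusted p below 0.05, 1 gene passed (Fbrs), and DESeq2 called 0. In Pcgf1-/- 2 of 8 were called (32.3% of all genes), in Pcgf2/4-/- 1 of 8 (21.6%), in Pcgf6-/- 1 of 8 (46.5%), in Pcgf1/2/4-/- 4 of 8 (37%) and in Pcgf3/5/6-/- 2 of 8 (53.3%). These 6 comparisons share the wild-type libraries. Between the triple knockouts and the lines with fewer genes deleted, 4 of 8 were called in Pcgf1/2/4-/- against Pcgf1-/- (41.6% of all genes) and 2 of 8 against Pcgf2/4-/- (30%). In Pcgf3/5/6-/-, 2 of 8 were called against Pcgf3/5-/- (51.8%) and 2 of 8 against Pcgf6-/- (46%). The median log2 fold change of the 8 genes lay between -0.11 and 0.33 over the 10 comparisons, and that of all genes between -0.11 and 0.05. In no comparison did the share of the 8 genes called stand far above that of all genes. Some of the 4 calls in Pcgf1/2/4-/- against wild-type were lost with any 1 library left out, and with wild-type as 1 sample. Some of the 4 against Pcgf1-/- were lost without Pcgf1-/- replicate 1 or without Pcgf1/2/4-/- replicate 1 or 2.

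**Figure D2:**
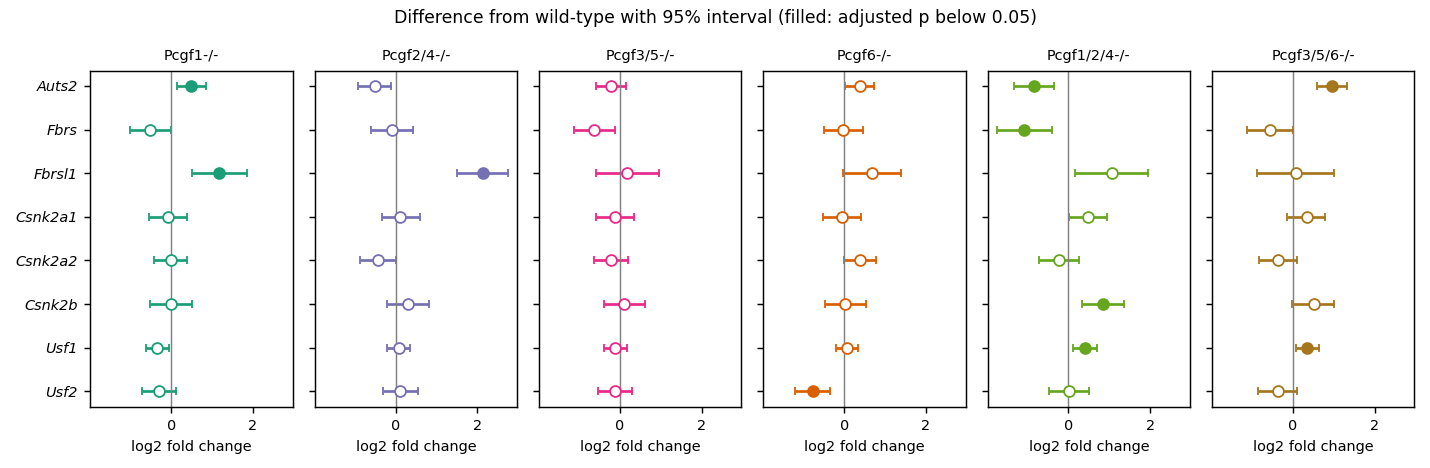
Log2 fold change against wild-type (horizontal axis) of the 8 genes in the 6 knockouts, with 95% intervals from edgeR as lines and filled points for adjusted p below 0.05. The filled points farthest from 0 are Fbrsl1 in Pcgf2/4-/- (2.13), Fbrsl1 in Pcgf1-/- (1.18), Fbrs in Pcgf1/2/4-/- (-1.08) and Auts2 in Pcgf3/5/6-/- (0.96).

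Auts2, the largest of these genes and the one whose protein can switch the complex towards activation of transcription, moved in opposite directions in the triple knockouts. Its level was 17.2 and 20.7 CPM in the wild-type libraries, 36 and 37.9 CPM in those labelled Pcgf3/5/6-/-, and 10.1 and 10.8 CPM in Pcgf1/2/4-/-. It was 26.3 and 26.7 CPM in Pcgf1-/-, 23.9 and 25.1 CPM in Pcgf6-/-, 15.5 and 17.0 CPM in Pcgf3/5-/- and 9.63 and 15.1 CPM in Pcgf2/4-/-. Both Pcgf3/5/6-/- libraries were above every other library, the wild-type libraries lay between those of the triple knockouts with no overlap, and only the Pcgf1/2/4-/- and Pcgf2/4-/- ranges met at the low end. From high to low the order was Pcgf3/5/6-/-, Pcgf1-/-, Pcgf6-/-, wild-type, Pcgf3/5-/-, Pcgf2/4-/- and Pcgf1/2/4-/-. Of neighbours in this order, Pcgf6-/- and Pcgf3/5-/- were not called against wild-type, Pcgf2/4-/- and Pcgf1/2/4-/- did not differ beyond their spread (-0.34, edgeR adjusted p = 0.326), and the others were not tested against each other.

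Auts2 rose in Pcgf3/5/6-/- by a log2 fold change of 0.96 (SE 0.17, edgeR adjusted p = 0.000295), and with wild-type as 1 sample the value was 0.96 (adjusted p = 0.00214). It rose there against Pcgf3/5-/- (1.18, SE 0.18, adjusted p = 6.96e-05), and this call and the one against wild-type held without any single library. Against Pcgf6-/- it rose by 0.59 (SE 0.17, edgeR adjusted p = 0.0104), a call that ended without Pcgf6-/- replicate 2 or Pcgf3/5/6-/- replicate 2 (0.55 each). In Pcgf1/2/4-/- Auts2 fell by 0.85 (SE 0.23, edgeR adjusted p = 0.0116; 0.0271 with wild-type as 1 sample). That call ended without wild-type replicate 1 (-0.71) or without Pcgf1/2/4-/- replicate 1 (-0.79) or 2 (-0.89), and with the smoothing described under Csnk2a1 (-0.52, adjusted p = 0.0537). Against Pcgf1-/- the fall in Pcgf1/2/4-/- was -1.33 (SE 0.22, edgeR adjusted p = 0.000397) and held without any single library. The rise in Pcgf1-/- (0.49, SE 0.16, edgeR adjusted p = 0.0358) did not hold with wild-type as 1 sample (0.48, adjusted p = 0.106), nor without wild-type replicate 1 (0.62), wild-type replicate 2 (0.36) or Pcgf1-/- replicate 1 (0.47). Auts2 differed by -0.51 in Pcgf2/4-/- and by 0.38 in Pcgf6-/- without passing the threshold (edgeR adjusted p = 0.0649 and 0.0752). The summed primitive endoderm and 2-cell-like markers were higher in Pcgf3/5/6-/-, where Auts2 was highest, and higher also in Pcgf6-/-. Their part in the Auts2 level was not tested.

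Fbrs, for fibrosin, was lower in several knockouts and passed the threshold in 1. It stood at 17.0 and 20.4 CPM in wild-type, 8.58 and 9.08 CPM in Pcgf1/2/4-/-, 10.2 and 13.8 CPM in Pcgf3/5-/-, 12.6 and 13.6 CPM in Pcgf1-/-, and 11.1 and 14.5 CPM in Pcgf3/5/6-/-. In all 4 of these genotypes both libraries were below both wild-type libraries, while Pcgf6-/- (17.5 and 19.3 CPM) and Pcgf2/4-/- (11.3 and 21.1 CPM) overlapped wild-type. Fbrs fell in Pcgf1/2/4-/- by 1.08 (SE 0.31, edgeR adjusted p = 0.0156; 0.0352 with wild-type as 1 sample) and there against Pcgf2/4-/- by 1.00 (SE 0.32, adjusted p = 0.0311). The first call ended without wild-type replicate 2 (-0.95) or without Pcgf1/2/4-/- replicate 1 (-1.11) or 2 (-1.03). The other ended without Pcgf2/4-/- replicate 2 (-0.36) or without Pcgf1/2/4-/- replicate 1 (-1.02) or 2 (-0.95). The log2 fold change was -0.62 in Pcgf3/5-/-, -0.51 in Pcgf1-/- and -0.55 in Pcgf3/5/6-/-, none past the threshold (edgeR adjusted p = 0.076, 0.115 and 0.0931).

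Fbrsl1, for the third relative in this family, was the least abundant gene and showed the largest rise, in Pcgf2/4-/-. Its wild-type libraries held 2.00 and 2.67 CPM from 33 counts in all, and the Pcgf2/4-/- libraries held 7.96 and 11.4 CPM from 108 counts. Levels were 5.26 and 5.36 CPM in Pcgf1-/-, 4.81 and 4.97 CPM in Pcgf1/2/4-/-, 3.37 and 4.11 CPM in Pcgf6-/-, 1.92 and 3.21 CPM in Pcgf3/5-/-, and 2.03 and 2.84 CPM in Pcgf3/5/6-/-. Pcgf1-/-, Pcgf2/4-/-, Pcgf1/2/4-/- and Pcgf6-/- thus lay above wild-type with no overlap, and the libraries labelled Pcgf3/5-/- and Pcgf3/5/6-/- overlapped it. Fbrsl1 rose by 2.13 in Pcgf2/4-/- (SE 0.29, edgeR adjusted p = 0.000219; 0.00133 with wild-type as 1 sample), and the call held without any single library. In Pcgf1-/- it rose by 1.18 (SE 0.31, edgeR adjusted p = 0.0103; 0.0273 with wild-type as 1 sample), a call lost without wild-type replicate 1 (0.98) or Pcgf1-/- replicate 1 (1.16). The Pcgf1/2/4-/- value was 1.06 (SE 0.42) and did not pass the threshold (edgeR adjusted p = 0.0605). Between these lines, Fbrsl1 was lower in Pcgf1/2/4-/- than in Pcgf2/4-/- (-1.07, SE 0.34, edgeR adjusted p = 0.0301). DESeq2 did not call that difference (-0.99, adjusted p = 0.0897), and it was lost without Pcgf2/4-/- replicate 2 (-0.70) or without Pcgf1/2/4-/- replicate 1 (-1.04) or 2 (-1.09).

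The casein kinase 2 genes split into an abundant pair and a scarce catalytic subunit. Csnk2a1 was at 464 and 477 CPM in wild-type, 368 and 519 in Pcgf1-/-, 617 and 410 in Pcgf2/4-/-, 393 and 475 in Pcgf3/5-/-, 436 and 475 in Pcgf6-/-, 686 and 631 in Pcgf1/2/4-/- and 584 and 604 CPM in Pcgf3/5/6-/-, in replicate order. Csnk2b was at 137 and 139 CPM in wild-type, 106 and 169 in Pcgf1-/-, 217 and 127 in Pcgf2/4-/-, 130 and 169 in Pcgf3/5-/-, 137 and 145 in Pcgf6-/-, 266 and 231 in Pcgf1/2/4-/- and 187 and 204 CPM in Pcgf3/5/6-/-. Both genes stood above wild-type in both triple knockouts, and within Pcgf1-/-, Pcgf2/4-/- and Pcgf3/5-/- both were higher in the shallower library. In those groups the most abundant 10th of all genes was also higher in the shallower library, by a median log2 CPM of replicate 2 minus replicate 1 of 0.46 in Pcgf1-/-, -0.56 in Pcgf2/4-/- and 0.24 in Pcgf3/5-/-.

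Csnk2b rose in Pcgf1/2/4-/- by 0.85 (SE 0.24, edgeR adjusted p = 0.0144), and the call was lost with wild-type as 1 sample (0.84, adjusted p = 0.0664). It was lost also without wild-type replicate 1 (0.83), wild-type replicate 2 (0.86) or Pcgf1/2/4-/- replicate 1 (0.76). Against Pcgf1-/- the rise was 0.86 (SE 0.24, edgeR adjusted p = 0.0116), lost without Pcgf1-/- replicate 1 (0.56) or Pcgf1/2/4-/- replicate 1 (0.73). Csnk2a1 rose in Pcgf1/2/4-/- against Pcgf1-/- by 0.57 (SE 0.22, edgeR adjusted p = 0.0485), a call that turned to -0.20 (adjusted p = 0.071) when the trend of each library with expression level was smoothed out. It was lost also without Pcgf1-/- replicate 1 (0.34) or without Pcgf1/2/4-/- replicate 1 (0.48) or 2 (0.59). Against wild-type the Csnk2a1 value in Pcgf1/2/4-/- was 0.49 (edgeR adjusted p = 0.0938), and with that smoothing -0.27 (adjusted p = 0.0206), so its direction there depends on the scaling. Csnk2b kept its direction with smoothing (0.64, edgeR adjusted p = 0.0028).

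Csnk2a2 was at 18.0 and 20.1 CPM in wild-type and highest in Pcgf6-/- at 23.4 and 26.0 CPM. The other genotypes ranged from 10.1 CPM in Pcgf2/4-/- replicate 1 to 20.3 CPM in Pcgf1-/- replicate 1, and Pcgf3/5/6-/- held 13.9 and 15.8 CPM. Only the Pcgf6-/- libraries were both above wild-type. No comparison with wild-type passed for Csnk2a2, and the largest values were -0.44 in Pcgf2/4-/- and 0.38 in Pcgf6-/- (edgeR adjusted p = 0.146 and 0.104). Csnk2a2 was lower in Pcgf3/5/6-/- than in Pcgf6-/- (-0.74, SE 0.21, edgeR adjusted p = 0.0107), a call lost without Pcgf6-/- replicate 1 (-0.66) or Pcgf3/5/6-/- replicate 2 (-0.65).

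Usf1 rose in both triple knockouts and Usf2 fell in Pcgf6-/-. Usf1 was at 149 CPM in both wild-type libraries, 187 and 209 CPM in Pcgf1/2/4-/-, 184 and 198 CPM in Pcgf3/5/6-/- and 109 and 127 CPM in Pcgf1-/-. The other 3 genotypes held 133 to 170 CPM. Both triple knockouts lay above every library of the other 5 genotypes, and Pcgf1-/- lay below wild-type. Usf1 rose in Pcgf1/2/4-/- (0.41, SE 0.13, edgeR adjusted p = 0.0277) and in Pcgf3/5/6-/- (0.36, SE 0.13, adjusted p = 0.0338). With wild-type as 1 sample neither passed (0.40 and 0.35, edgeR adjusted p = 0.116 and 0.132), and each was lost without either wild-type library (0.40 and 0.41, and 0.35 and 0.35). The Pcgf1/2/4-/- call was lost also without its replicate 1 (0.34) and with smoothing (0.23), and the Pcgf3/5/6-/- call without its replicate 1 (0.29) or 2 (0.39). Against Pcgf1-/- the rise in Pcgf1/2/4-/- was 0.75 (SE 0.13, edgeR adjusted p = 0.000656) and held without any single library. Against Pcgf3/5-/- the rise in Pcgf3/5/6-/- was 0.46 (SE 0.13, edgeR adjusted p = 0.00885), lost without Pcgf3/5-/- replicate 1 or Pcgf3/5/6-/- replicate 1 (0.40 each).

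Usf2 was at 15.1 and 18.3 CPM in wild-type and at 9.50 and 10.1 CPM in Pcgf6-/-. The lowest value elsewhere was 10.1 CPM in Pcgf3/5/6-/- replicate 1, whose replicate 2 held 15.9 CPM, and the other 4 genotypes held 12.6 to 19.7 CPM. Pcgf6-/- thus lay below wild-type with no overlap. Usf2 fell there by 0.77 (SE 0.20, edgeR adjusted p = 0.00572; 0.0181 with wild-type as 1 sample), and the call ended without wild-type replicate 2 (-0.63). In Pcgf3/5/6-/- the value was -0.37 (edgeR adjusted p = 0.177), and -0.75 (adjusted p = 0.0455) without its replicate 2. The 2-cell-like markers were highest in Pcgf6-/-, and their part in the Usf2 value was not tested. In the authors' deposited table the Usf2 value in Pcgf6-/-, under the other clone name, was -0.74. In that table Csnk2b in Pcgf3/5/6-/- was 0.58 with an adjusted p of 0.0387 where edgeR gave 0.51 and 0.089. The other values for these genes in that table lay on the same side of 0.05 as in edgeR.

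At the chromatin level, H3K4me3, the mark of active and poised starts, was called within 2.5 kb of an annotated start of 7 of the 8 genes in each of the 5 lines with a list (wild-type, Pcgf1-/-, Pcgf2/4-/-, Pcgf3/5-/-, Pcgf6-/-), where it was called at 68.6 to 71.7% of protein-coding genes. The gene without a peak was Fbrs, whose annotated start lies 6.26 kb inside its RefSeq start on chromosome 7 at 134622472. A H3K4me3 peak covered that RefSeq start in all 5 lines, and with RefSeq starts added the count was 8 of 8. Its fold enrichment was 31.1 in wild-type and 75.6 to 88.7 in the others. These values come from single lists without scaling between them, and a difference in the mark between lines was not tested. PCGF3 peaks were at none of the 8 genes in any of the 10 lists, which held 5 to 612 peaks at 0.00514 to 2.39% of genes. This covers wild-type (223 peaks), shCtr (44), shUsf1 (11) and shUsf2 (5), so neither binding nor its loss could be read at these genes at this peak depth. USF1 peaks were absent within 2.5 kb of the other 6, and the nearest lay from 18597 bases (Fbrsl1) to 78633 bases (Fbrs) away. RING1B was called at Auts2 in 5 of 8 lists and at Fbrsl1 in 1, and at no other of these genes. Its lists had peaks at 6.45 to 18.2% of genes.

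**Figure D3:**
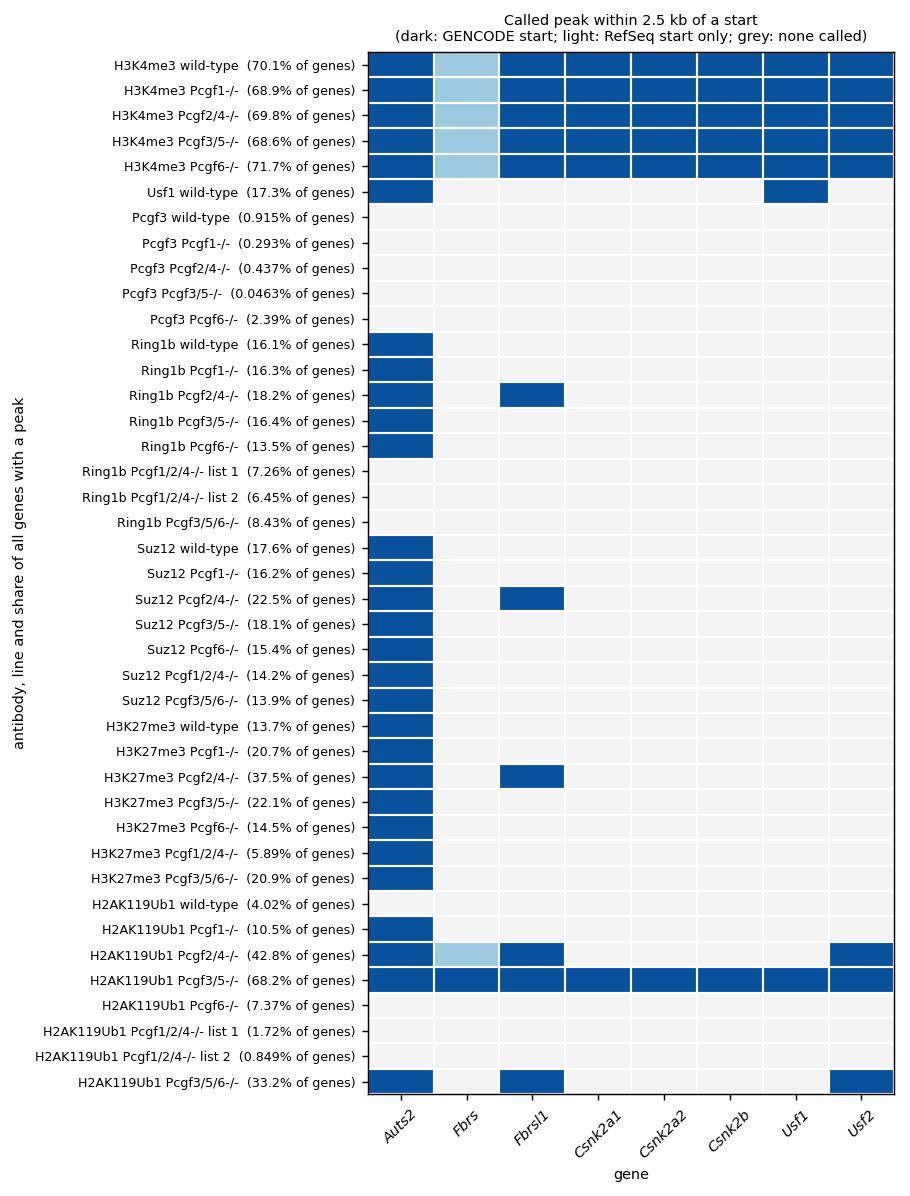
Peaks within 2.5 kb of an annotated start of each of the 8 genes (columns) in the lists of 7 antibodies (rows, by line, with the share of all protein-coding genes that had a peak), dark where called at a GENCODE start, light at a RefSeq start only and grey where none was called. H3K4me3 is dark for 7 of 8 genes in all 5 lines, PCGF3 for none, USF1 for Auts2 and Usf1, and RING1B for Auts2 and, in Pcgf2/4-/-, Fbrsl1.

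Auts2 carried Polycomb peaks as well as H3K4me3 and USF1, and the map of 3 of its starts shows how they differ by line. In wild-type, RING1B covered the first Auts2 starts at chr5:133016791-133019030 with a fold enrichment of 11.9 and the start 927 kb inside at chr5:132091941-132092803 with 8.72. At the first starts the RING1B peak reached 22.1 in Pcgf1-/-, 15.8 in Pcgf3/5-/- and 10.2 in Pcgf6-/-, where a peak was called also at the start 1005 kb inside (8.67). In Pcgf2/4-/- this broad peak over the first starts was not called, but RING1B was still called within 2.5 kb of them, and at the start 927 kb inside (7.22), where PCGF6 was also called in that line (14.6). Neither Pcgf1/2/4-/- list nor the Pcgf3/5/6-/- list held a RING1B peak at any Auts2 start. USF1 was profiled in wild-type only.

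**Figure D4:**
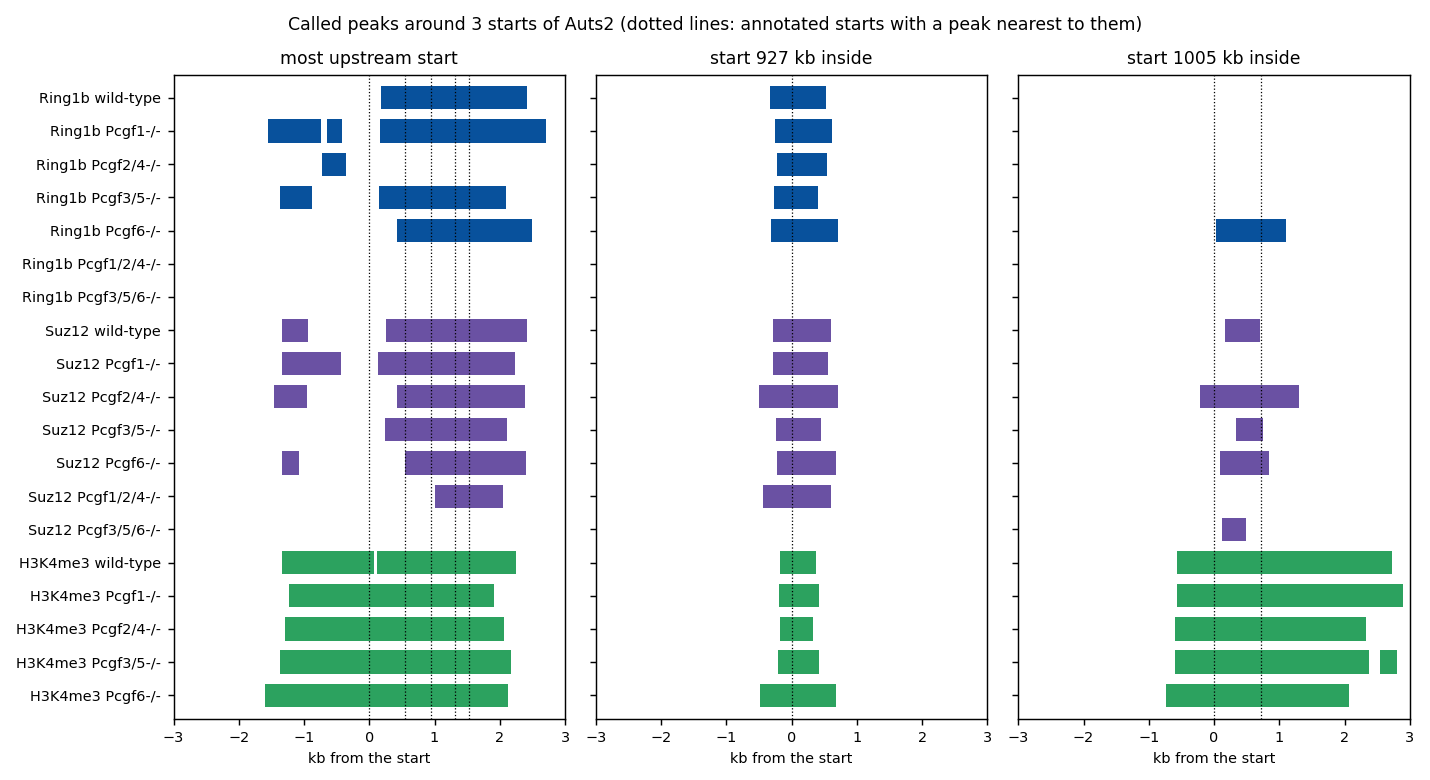
Peaks called around 3 Auts2 starts (the first, and those 927 and 1005 kb inside the gene), 1 row for each antibody and line, against distance from the start in kb in the direction of transcription. RING1B bars are present in wild-type, Pcgf1-/-, Pcgf2/4-/-, Pcgf3/5-/- and Pcgf6-/- and missing in the triple knockouts.

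Both triple knockouts thus lacked a RING1B peak at Auts2, while its RNA fell in Pcgf1/2/4-/- and rose in Pcgf3/5/6-/-. Among the 3133 genes with RING1B in wild-type, 68.2% and 73.0% had none in the Pcgf1/2/4-/- lists and 49.9% had none in the Pcgf3/5/6-/- list. Of those without RING1B in the first Pcgf1/2/4-/- list, 16.4% of the 1568 tested were higher and 16.1% lower in that line, with a median log2 fold change of 0.00. Of those without it in Pcgf3/5/6-/-, 60.0% of the 1327 tested were higher and 9.95% lower, with a median of 1.09, beside 0.96 for Auts2. Genes that had RING1B in both wild-type and Pcgf3/5/6-/- gave similar values, with 52.8% of 990 higher, 13.9% lower and a median of 1.15. SUZ12, a subunit of Polycomb repressive complex 2, was called at Auts2 in all 7 lines, over the first starts with a fold enrichment of 16.1 in wild-type and 11.2 in Pcgf1/2/4-/-. In Pcgf3/5/6-/- the only SUZ12 peak at Auts2 lay near the starts about 1005 kb inside (5.30). H3K27me3, the mark set by that complex, was called at Auts2 in all 7 lines. The SUZ12 lists had peaks at 13.9 to 22.5% of genes and the H3K27me3 lists at 5.89 to 37.5%. At a -log10 q of at least 10, Auts2 had no SUZ12 peak in Pcgf3/5/6-/- and no H3K27me3 peak in Pcgf1/2/4-/- or Pcgf6-/-. H2AK119Ub1 was called there in Pcgf1-/-, Pcgf2/4-/-, Pcgf3/5-/- (28.4 over the first starts) and Pcgf3/5/6-/-, and not in wild-type, Pcgf6-/- or Pcgf1/2/4-/-. The H2AK119Ub1 lists ranged from 1070 to 128786 peaks (1741 in wild-type), and the part of list size in these calls was not tested.

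Fbrsl1 gained Polycomb peaks at its inner start in Pcgf2/4-/-, 1 of the 2 lines in which its RNA rose; in the other, Pcgf1-/-, none of RING1B, SUZ12, PCGF6 or H3K27me3 was called there. In Pcgf2/4-/-, peaks were called over that start, whose promoter is shown above, for RING1B (chr5:110815790-110816130, fold enrichment 5.27), SUZ12 (chr5:110815535-110816335, 7.88), PCGF6 (chr5:110815850-110816180, 8.10), H3K27me3 (chr5:110815029-110816350, 7.8) and H2AK119Ub1 (chr5:110815041-110816387, 11.6). RING1B, SUZ12, PCGF6 and H3K27me3 were called there in no other line, and H2AK119Ub1 also in Pcgf3/5-/- (20.0). In Pcgf3/5/6-/- a H2AK119Ub1 peak lay 522 bases from the nearest Fbrsl1 start. The RING1B peak had a -log10 q of 7.88 and was not among the peaks of at least 10. H3K4me3 covered the same start in all 5 lines. Its fold enrichment was 26.6 in wild-type, 52.2 in Pcgf2/4-/-, 54.6 in Pcgf6-/-, 34.0 in Pcgf1-/- and 31.1 in Pcgf3/5-/-. These are single lists without scaling between them, and the wild-type value was the lowest at Fbrs as well.

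**Figure D5:**
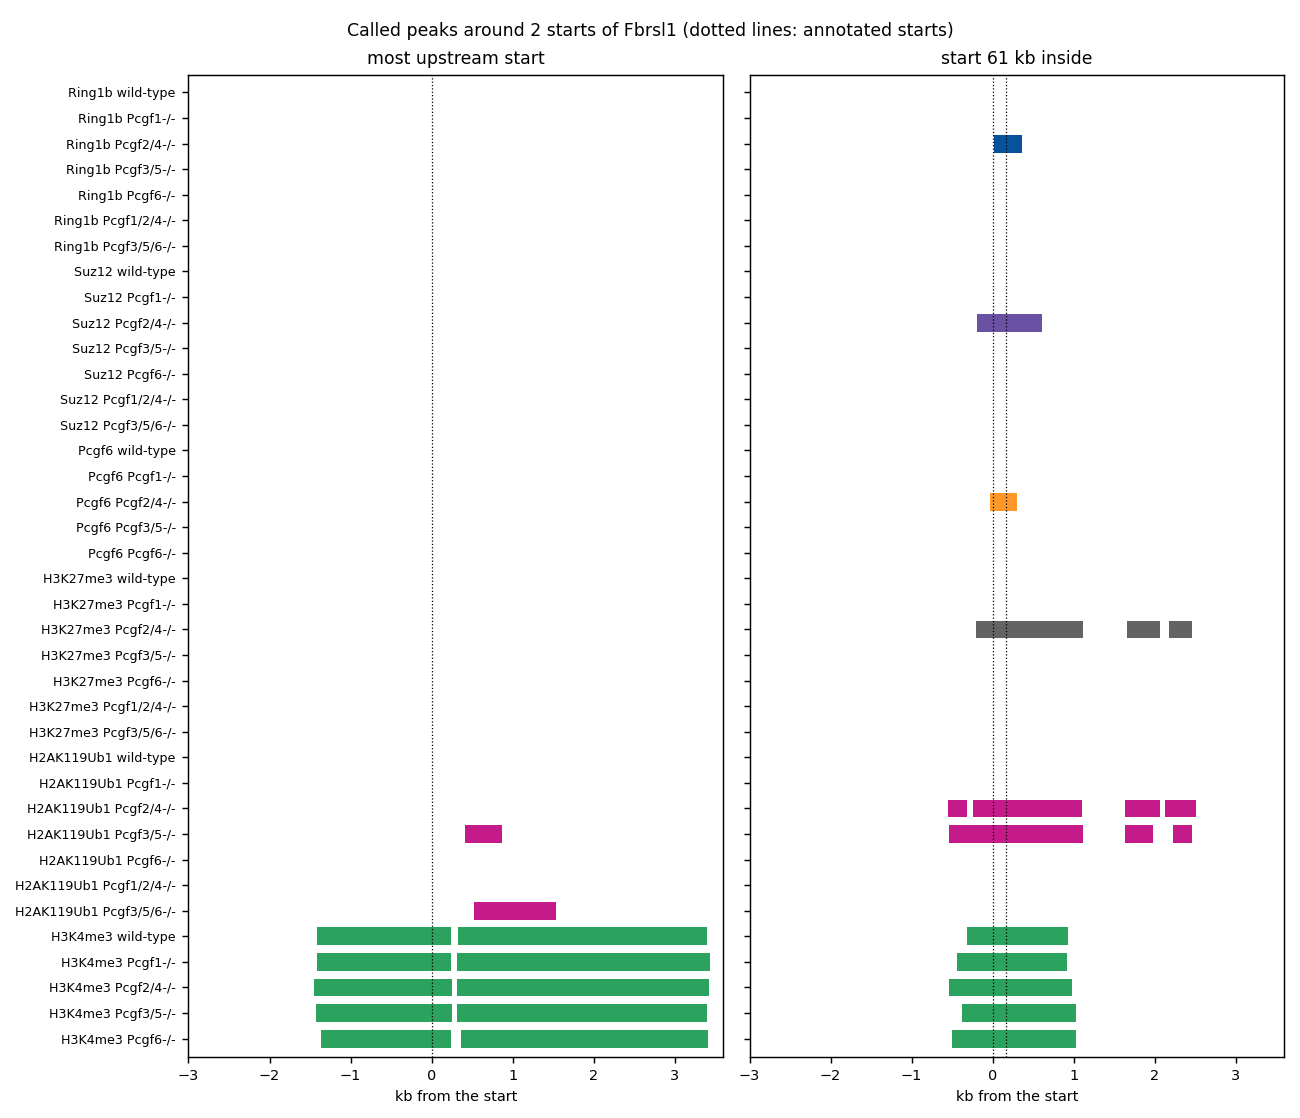
Peaks called around the upstream Fbrsl1 start and the start 61.4 kb inside the gene, 1 row for each antibody and line, against distance from the start in kb in the direction of transcription. H3K4me3 bars lie at both starts in all 5 lines, and RING1B, SUZ12 and H3K27me3 bars lie at the inner start in Pcgf2/4-/- alone.

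Of all protein-coding genes, 151 gained RING1B, SUZ12 and H3K27me3 together in Pcgf2/4-/-; 12.5% of the 144 tested were higher there and 16.0% lower, with a median log2 fold change of -0.02, beside 2.13 for Fbrsl1. The Pcgf2/4-/- lists of H3K27me3 and H2AK119Ub1 were large, with 112110 and 121944 peaks, against 8063 and 1741 in wild-type. In that line PCGF6 had 12842 peaks at 34.5% of genes, against 1868 at 6.02% in wild-type. SUZ12 peaks lay at 22.5% of genes, against 17.6% in wild-type, and RING1B peaks at 18.2%, against 16.1%. For PCGF6, SUZ12 and RING1B these were the highest shares among the lists of the antibody. The part of list size in the Fbrsl1 calls was not tested. H3K36me3, a mark of transcribed gene bodies, covered 10.4% of the Fbrsl1 gene in wild-type, 15.2% in Pcgf3/5-/-, 21.5% in Pcgf1-/-, 37.5% in Pcgf2/4-/- and 76.0% in Pcgf6-/-. The 2 lines in which Fbrsl1 RNA rose had more of the gene covered than wild-type, and the highest coverage was in Pcgf6-/-, where the RNA value was 0.68 and did not pass the threshold (edgeR adjusted p = 0.103). The H3K36me3 lists held 49101 to 75972 peaks, with 60309 in wild-type and 59343 in Pcgf6-/-. The wild-type list had peaks at the smallest share of genes (27.9%, against 30.4 to 33.7%). Coverage was lowest in wild-type also for Csnk2a2 (37.6%, against 62.4 to 77.6%), Csnk2b (45.5%, against 57.1 to 65%), Csnk2a1 (36.2%, against 42.6 to 45.6%) and Usf1 (29.7%, against 44.1 to 47.8%), and not for Usf2 or Auts2. More coverage than in wild-type was therefore not particular to Fbrsl1. Peaks of this mark covered 93.2 to 95.6% of Fbrs in the 5 lines and 0 to 1.55% of Auts2.

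The casein kinase 2 and Usf2 starts carried few Polycomb peaks. PCGF2 was called at Csnk2b in wild-type, Pcgf1-/- and Pcgf6-/-, with fold enrichments of 7.93, 7.37 and 12.1, and at Auts2 in the same lines and in Pcgf3/5-/-. PCGF6 was called at Usf2 in Pcgf2/4-/- alone, on its start (7.82) and upstream (6.76). That list had peaks at 34.5% of genes, against 0.761 to 21.6% in the other PCGF6 lists. In the Ring1a-/-;Ring1b fl/fl;Rosa26::CreERT2 line, PCGF1 was called at Auts2, Fbrsl1, Csnk2b and Usf2, in a list of 12735 peaks at 33.7% of genes. H2AK119Ub1 was called at all 8 genes in Pcgf3/5-/-, where it was called at 68.2% of genes, and at none of them in wild-type (4.02% of genes). At Usf2 it was called also in Pcgf2/4-/- (42.8% of genes) and Pcgf3/5/6-/- (33.2%), 1253 and 1178 bases from a start. No RING1B, SUZ12 or H3K27me3 peak lay within 2.5 kb of a start of Csnk2a1, Csnk2a2, Csnk2b, Usf1 or Usf2 in any line.

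The other genes of the PCGF3/5 complexes and the USF family (Pcgf3, Pcgf5, Ring1, Rnf2, Rybp, Yaf2, Ep300, Dcaf7 and Usf3) were read from the same fit, and all 9 were tested. In Pcgf3/5-/- 0 rose and 2 fell: Pcgf5 (-1.22, edgeR adjusted p = 0.00175) and Ep300, for the acetyltransferase p300 that AUTS2 can recruit (-0.53, adjusted p = 0.0129). In Pcgf6-/- 2 rose, Pcgf5 (1.83) and Yaf2 (0.77), for a subunit that alternates with RYBP, and 3 fell, Ring1 (-0.94), Dcaf7 (-0.39) and Usf3 (-1.54). The counts of higher and lower genes were 1 and 1 in Pcgf1-/-, 0 and 2 in Pcgf2/4-/-, 0 and 2 in Pcgf1/2/4-/- and 1 and 1 in Pcgf3/5/6-/-. Ep300 fell in both triple knockouts as well (-0.91 in Pcgf1/2/4-/- and -0.52 in Pcgf3/5/6-/-). Of all genes tested, 21.6% were called in Pcgf3/5-/-, 46.5% in Pcgf6-/- and 32.3% in Pcgf1-/-. The share was 21.6% in Pcgf2/4-/-, 37% in Pcgf1/2/4-/- and 53.3% in Pcgf3/5/6-/-. The list's median log2 fold change lay between -0.27 and 0.06, and that of all genes between -0.11 and 0.05.

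Of 21 other E-box factors, 2 rose and 4 fell in Pcgf3/5-/-, 5 and 4 in Pcgf1-/-, 1 and 4 in Pcgf2/4-/-, 4 and 7 in Pcgf6-/-, 4 and 5 in Pcgf1/2/4-/- and 7 and 4 in Pcgf3/5/6-/-. Of all genes tested, 11.1% were higher and 10.4% lower in Pcgf3/5-/-, 13.9% and 18.4% in Pcgf1-/-, 8.1% and 13.5% in Pcgf2/4-/-, 27.8% and 18.6% in Pcgf6-/-, 14.4% and 22.6% in Pcgf1/2/4-/-, and 28% and 25.3% in Pcgf3/5/6-/-. Mga, whose protein joins the PCGF6 complex, fell in Pcgf6-/- (-0.97), Pcgf1/2/4-/- (-1.13) and Pcgf3/5/6-/- (-1.30), and its dimer partner gene Max rose in the triple knockouts (0.56 and 0.72), as did Usf1 (edgeR adjusted p from 1.25e-06 to 0.0338 over these values). Tfeb, for a lysosomal gene regulator, fell in Pcgf6-/- (-3.34), and also in Pcgf2/4-/- (-2.3), Pcgf1/2/4-/- (-1.39) and Pcgf1-/- (-0.81). Of these lines, Usf2 was called lower only in Pcgf6-/-. Mxd4 rose in Pcgf3/5/6-/- by 5.94, from a wild-type mean of 0.143 CPM to 10.1 CPM. Myc fell in 5 of the 6 knockouts, with log2 fold changes from -0.42 in Pcgf3/5-/- to -1.98 in Pcgf1-/-.

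Over the 14 libraries, Csnk2a1 and Csnk2b moved together in log2 CPM (Pearson's r = 0.97) and both with Usf1 (0.86 and 0.83), whereas Usf1 and Usf2 did not (0.03) and Fbrs ran against Csnk2b (-0.73). The most alike of 8883 genes were Eef1d and Atp5g3 for Csnk2b (r = 0.994 each) and Polr2e and Gpi1 for Csnk2a1 (0.986 each), all abundant housekeeping genes. For Usf1 they were Casc4 (0.961) and Creld2 (0.959), and for Usf2 A4galt (0.906) and Afap1 (0.869). For Auts2 they were Plekho2 (0.945) and Kdm1b (0.936), for Fbrsl1 Ttn (0.971) and Trim33 (0.914), for Fbrs Arhgef12 (0.916) and Numa1 (0.915), and for Csnk2a2 Vps39 (0.892) and Clasp2 (0.883). These 14 points share genotypes and library depth, so the values describe these libraries only.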

How the data were processed

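Gene expression was measured by RNA-seq with a SMART-seq2 protocol, per the labels' protocols, and protein and histone mark positions by ChIP-seq, with Drosophila chromatin as spike-in for the histone marks. Per the submitters' processing notes, the tools were TopHat2 2.1.1, Bowtie 1.2.2, HTSeq 0.7.2, Picard 1.62, MACS2 2.1.1 and DESeq2 3.7 with mouse build mm9. The sources used here do not give their settings, the use of strand or the treatment of shared reads. The RNA file deposited by the authors holds raw counts per gene. The authors' deposited comparison tables hold log2 fold changes and adjusted p-values. There was 1 deposited peak list for each of 80 ChIP-seq samples. Per the file headers, it gives the fold enrichment ratio and the -log10 p and q of each peak. Fold enrichments were used as deposited, without scaling between lists.

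From the counts, 15464 of 23377 genes passed edgeR's filterByExpr. They were fitted over all 14 libraries with TMM scaling and the quasi-likelihood test (R 4.3.3, edgeR 4.0.16, limma 3.58.1), with Benjamini-Hochberg adjustment over all genes and a threshold of 0.05. The biological coefficient of variation was 12.3% with 7 residual degrees of freedom, and 2147968 to 7848161 counts per library set the precision of scarce genes. The scripts were tested on simulated data. Log2 CPM used a prior count of 2. Alternatives were RLE scaling, no filter, loess offsets, the 2 groups alone, a replicate block, each library left out, and DESeq2 1.42.0. Summing the wild-type libraries and adding RefSeq starts were chosen after seeing the data. Peaks were assigned to GENCODE M1 starts in NCBIM37 within 2.5 kb, with 1 kb, 5 kb and a -log10 q of 10 as alternatives. All 8 genes were named whatever their values, wider lists were given as counts, and the 2 genes most alike each were taken among those with a mean log2 CPM of at least 4. Members and lists were chosen with earlier results of these data known. Replicate numbers were only shared numbers: over 21 pairs of groups the deviations correlated between -0.46 and 0.38, and 3 pairs were over 0.1. Another item is not reported here.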

Additional observations from a re-analysis of the deposited data

Results flagged for a closer look

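The Auts2 difference from wild-type in the line labelled Pcgf1/2/4-/- differed from that in Pcgf1-/-. The effect in Pcgf1/2/4-/- minus that in Pcgf1-/- was -1.33 on the log2 scale (SE 0.22, edgeR adjusted p = 0.000397), because Auts2 was below wild-type in the triple knockout and above it in Pcgf1-/-. Both Pcgf1/2/4-/- libraries (10.1 and 10.8 CPM) were below both Pcgf1-/- libraries (26.3 and 26.7 CPM), and the value ranged from -1.44 to -1.02 over the alternatives.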

How the results depend on the processing

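In all, 5 calls passed the threshold under every alternative run: Fbrsl1 in Pcgf2/4-/- (log2 fold change 1.76 to 2.34), Auts2 in Pcgf3/5/6-/- against wild-type (0.83 to 1.10) and Pcgf3/5-/- (1.11 to 1.24), and Auts2 (-1.44 to -1.02) and Usf1 (0.47 to 0.78) in Pcgf1/2/4-/- against Pcgf1-/-. Loess offsets smooth out each library's trend with expression level, and the share of all genes called moved with them. Against wild-type, the number of the 8 genes called was then 4 in Pcgf1-/- (40.2% of all genes), 2 in Pcgf2/4-/- (29.2%), 1 in Pcgf3/5-/- (28.8%), 3 in Pcgf6-/- (50.5%) and 4 in Pcgf3/5/6-/- (58.0%). In Pcgf1/2/4-/- against wild-type it stayed at 4 (39.6%), with Auts2 and Usf1 lost and Csnk2a1 and Fbrsl1 gained. Against Pcgf2/4-/- it was 4 in that line (35.6%). In Pcgf3/5/6-/- it was 4 against Pcgf3/5-/- (57.8%) and 5 against Pcgf6-/- (54.5%). Loess offsets turned Csnk2a1 to -0.27 in Pcgf1/2/4-/- against wild-type and to -0.20 against Pcgf1-/-. With only the 2 groups compared in the fit, 1 gene was called in Pcgf1-/- (29.8% of all genes), 4 in Pcgf6-/- (66.1%) and 5 in Pcgf3/5/6-/- (75.5%) against wild-type. In Pcgf1/2/4-/- there were 6 against wild-type (65.2%) and 0 against Pcgf2/4-/- (21.2%). In Pcgf3/5/6-/- there were 6 against Pcgf6-/- (65.9%). RLE factors gave 2 in Pcgf6-/- (47.0% of all genes), and no filter on low counts gave 1 in Pcgf3/5/6-/- (43.5%), both against wild-type. Summing the wild-type libraries as 1 sample ended calls in Pcgf1-/-, Pcgf1/2/4-/- and Pcgf3/5/6-/-.

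With a replicate block, 1 gene was called in Pcgf1-/- against wild-type (29.2% of all genes), where Auts2 missed the threshold (edgeR adjusted p = 0.054). The block also ended the Csnk2a1 call in Pcgf1/2/4-/- against Pcgf1-/- (0.58, edgeR adjusted p = 0.0658) and changed no other call.

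Leaving out 1 library at a time left 1 library in a group, so numbers of genes called are not compared between these fits. Except in Pcgf3/5-/- against wild-type, the number of the genes followed here that was called changed with the library left out. The share of all genes called changed as well, so a change in that number is not particular to these genes. Csnk2b in Pcgf2/4-/- (0.30, not called) ranged from -0.10 without Pcgf2/4-/- replicate 1 to 0.66. Among peaks, RING1B at Fbrsl1 in Pcgf2/4-/- was lost at a -log10 q of 10, and USF1 at Usf1 was lost within 1 kb or at that limit. At Auts2 the same limit ended H3K27me3 in Pcgf1/2/4-/- and Pcgf6-/- and SUZ12 in Pcgf3/5/6-/-. Scarce genes were limited by depth: Fbrsl1 had 15 to 108 counts per group and Auts2 43 in Pcgf1/2/4-/-. Where no value shows it, the cause of a change was not tested.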
